A study of Rattus norvegicus with 4 samples.

Results

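The incretin receptors and the cAMP relay behind them were followed through 10 genes of INS-1 cells, out of 23360 gene symbols that the deposited profiles list. The genes are the receptors Glp1r and Gipr, the adenylyl cyclases Adcy5, Adcy6 and Adcy8, the phosphodiesterase Pde3b, the cAMP sensor Rapgef4, the transcription factors Crem and Creb1, and the kinase Sik1. They were taken by name from a fixed list, and transcript values were added up for each symbol. All 10 are in the files, and 8 of them passed the expression filter, a mean of at least 1 TPM (transcripts per 1000000 in a library) over the 4 cultures. Adcy5 and Adcy8 lay below it.

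INS-1 832/3 is a clonal rat insulinoma line that secretes insulin and also carries a human insulin gene, maintained under Geneticin selection. The control group was 2 standard monolayer cultures (2D), and the other group was 2 cultures bioprinted into GelXA LAMININK 411, a gelatin methacrylate hydrogel blended with laminin (3D), in which the cells form pseudoislets. All 4 cultures were harvested on day 5 at passage 3 in the same medium, so the groups differed in matrix, geometry and the printing step together, and these cannot be told apart. No incretin hormone or cAMP-raising drug is named for any group. Poly(A) RNA was sequenced and the authors deposited TPM, which are normalized for transcript length, so that levels of different genes can be set side by side. TPM keep no read depth, so error is given here by the spread between cultures, 2 per group. The limma fit draws each gene's variance toward a trend over all genes tested.

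Beta-cell identity was checked first. Of 11 beta-cell markers, 10 are in the files, 9 of them at a mean of at least 1 TPM, and their summed level was 139600 and 151500 TPM in 2D and 150200 and 161800 TPM in 3D. Acinar markers were at 0 in all cultures. The summed markers of delta, PP and ductal cells, endothelium, fibroblasts and leukocytes did not exceed 2.35 TPM in any culture. Among alpha-cell markers, Irx1 and Irx2 were at 0 in all cultures, whereas Gcg, the gene of proglucagon and thus of glucagon and GLP-1, was at 41.9 and 73.9 TPM in 2D and at 124 and 155 TPM in 3D. Thus Gcg moved with the culture type while the other alpha-cell genes given here were at 0. Its part in the results below was not tested. In such bulk samples, a change in how many cells express a gene and a change in RNA per cell cannot be told apart.

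Incretins are gut hormones released on feeding that raise insulin secretion when glucose is high. GLP-1 and GIP bind receptors of the class B family on beta cells, which act through the stimulatory G protein on adenylyl cyclase, the enzyme that makes cAMP. Cyclic AMP then acts through protein kinase A (PKA) and through EPAC2, the exchange factor encoded by Rapgef4, and it is broken down by phosphodiesterases. In the nucleus PKA activates CREB, whose targets include its own feedback inhibitors, among them the ICER form of Crem and the kinase Sik1.

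Of the 8 members tested, 6 rose in 3D culture with an adjusted p below 0.05 in limma and none fell, at an adjusted or an unadjusted p. Among all 11960 genes tested, 38.0% passed the same threshold, 18.5% as higher and 19.5% as lower in 3D. Gipr rose most, followed by Crem, Pde3b, Sik1, Adcy6 and Glp1r. The 3D and 2D cultures did not overlap in 7 of the 8 tested members, the 6 that rose and Rapgef4, against 75.5% of all genes tested, so separation of the groups by itself sets the members little apart from other genes. The median log2 fold change of the tested members was 0.39, beside -0.003 over all genes. The members were chosen with earlier results known, and no test was made over the list. With 3D replicate 1 left out, the log2 fold changes of the 6 that rose ran from 0.22 (Glp1r) to 1.24 (Gipr). With 3D replicate 2 left out they ran from 0.25 (Glp1r) to 1.24 (Gipr). Several of the calls were then lost, as given for each gene below. A comparison with a culture left out assumes that the remaining culture of its group varies like those of the other group.

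**Figure D1:**
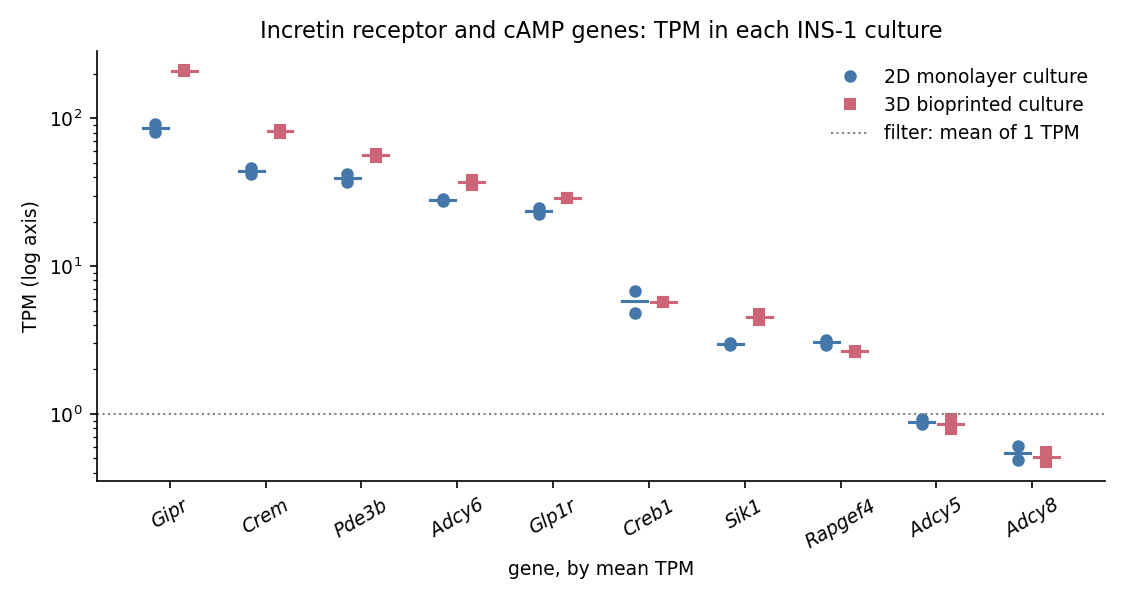
TPM as deposited (log axis) of the 10 genes in each of the 4 INS-1 cultures, circles for 2D monolayer, squares for 3D bioprinted, short bars for the mean of 2 cultures and a dotted line for the filter of 1 TPM. Gipr was the most abundant in both groups, and Adcy5 and Adcy8 lay below the line.

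The order of the levels was nearly the same in both groups. Gipr was highest, at a mean of 85.9 TPM in 2D and 209.5 TPM in 3D, followed by Crem, Pde3b, Adcy6 and Glp1r. Creb1, Sik1 and Rapgef4 lay between 2.65 and 5.81 TPM. Adcy5 and Adcy8 were lowest. The ranges of the 2 cultures did not overlap between neighbours in this order, except for Rapgef4 and Sik1 in 2D. Crem and Pde3b were close in 2D, where the lowest Crem value was 41.87 TPM and the highest Pde3b value 41.65 TPM. In 3D Sik1 stood above Rapgef4.

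The GIP receptor gene had a larger change than that of the GLP-1 receptor, and their confidence intervals were apart. Gipr was at 80.5 and 91.2 TPM in the 2D cultures and at 208 and 211 TPM in the 3D cultures. Each 3D culture had more than the higher monolayer culture, by a margin much wider than the spread within either group. The log2 fold change, computed here and below on scaled TPM with 1 added, was 1.24 (standard error 0.091, 95% confidence interval 1.01 to 1.46, adjusted p = 0.0035 in limma). It was called under all 13 other settings, with log2 fold changes from 1.11 to 1.36.

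Glp1r, the receptor that GLP-1 drugs act on, was at 24.7 and 22.7 TPM in 2D and at 28.9 and 28.7 TPM in 3D. The groups did not overlap, and the gene rose by 0.23 on the log2 scale (standard error 0.059, 95% confidence interval 0.08 to 0.38, adjusted p = 0.031 in limma). The call was lost when 3D replicate 1 (adjusted p = 0.19 in limma), 3D replicate 2 (0.14) or 2D replicate 2 (0.073) was left out. Glp1r is listed with 2 transcripts. ENSRNOT00000001527.6 was at 21.6 and 22.7 TPM in 2D and 26.4 and 24.3 TPM in 3D, and on its own was not called (log2 fold change 0.15, adjusted p = 0.25 in limma over transcripts). ENSRNOT00000079509.1 was at 3.10 and 0 TPM in 2D and at 2.53 and 4.36 TPM in 3D, where the groups overlap, and the 0 in 2D replicate 2 widens the difference of the summed gene.

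Because TPM are per length, the receptors can be compared within a culture. Gipr stood at 3.26 and 4.03 times Glp1r in 2D and at 7.19 and 7.35 times in 3D. The ratio did not overlap between groups, and its exact permutation test gave the smallest two-sided p that 2 cultures against 2 allow, 0.333. Among 13 class B receptor genes of the files, Gipr took 40.1% and 42.6% of the summed TPM in 2D and 50.7% and 51.7% in 3D, whereas the share of Glp1r went from 12.3% and 10.6% to 7.05% and 7.03%. At the RNA level, Gipr thus stood further above Glp1r in both 3D cultures than in either monolayer culture. Receptor protein was not measured here.

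The nearest relatives of these receptors were read from a list of 12 other class B receptor genes, of which 11 are in the files and 3 were tested. Gcgr, the glucagon receptor gene, was at 52.8 and 56.2 TPM in 2D and at 122 and 116 TPM in 3D, which was 1.07 on the log2 scale (adjusted p = 0.0035 in limma). It was thus more abundant than Glp1r in every culture and rose alongside Gipr. Adcyap1r1, a receptor for the neuropeptide PACAP, rose by 0.27 on the log2 scale, from 17.8 to 22.4 TPM on average (adjusted p = 0.031 in limma). Crhr1, a receptor for corticotropin-releasing hormone, was not called, at 23.3 and 26.9 TPM in 2D and 27.7 and 29.96 TPM in 3D. The other 8 genes, among them those for the secretin and calcitonin receptors, did not exceed 0.583 TPM in any culture.

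**Figure D2:**
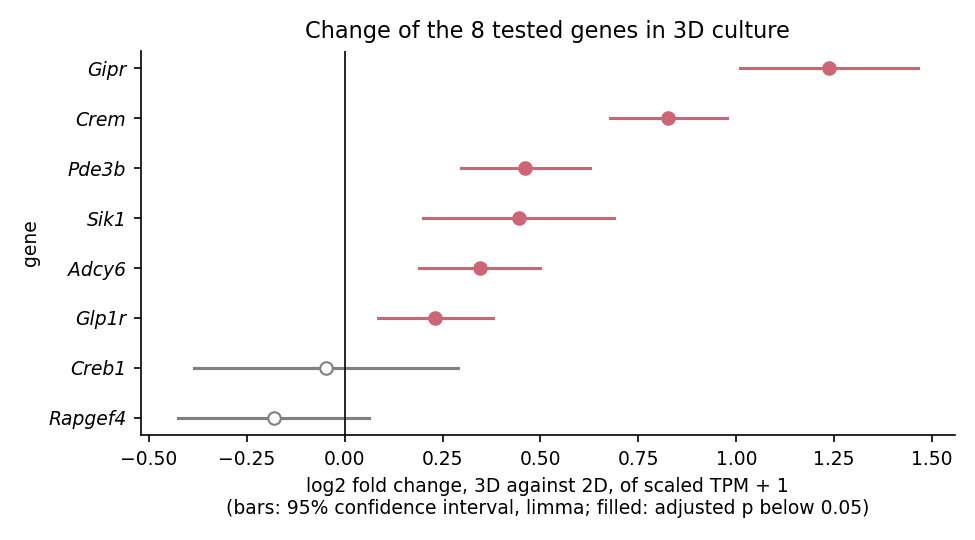
Log2 fold change of the 8 tested members in 3D against 2D culture, with 95% confidence intervals from limma and filled points where the adjusted p was below 0.05. The points of Gipr (1.24) and Crem (0.83) lie to the right of those of the other 4 called genes, which run from 0.23 to 0.46. The interval of Crem overlaps that of Sik1, and the intervals of Creb1 and Rapgef4 include 0.

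Adcy6 was the main cyclase transcript of these cells. It was at 28.4 and 27.7 TPM in 2D and at 35.6 and 38.4 TPM in 3D. Both 3D cultures lay above both monolayer cultures, and the log2 fold change was 0.34 (standard error 0.062, 95% confidence interval 0.19 to 0.50, adjusted p = 0.012 in limma). Without 3D replicate 1 or 3D replicate 2 the adjusted p was 0.082 and 0.094 in limma, with log2 fold changes of 0.39 and 0.30. The transcript ENSRNOT00000082699.1 held nearly all of it, and ENSRNOT00000088323.1 was above 0 only in 2D replicate 1, at 0.674 TPM.

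Adcy5 and Adcy8 were scarce in both culture types. Adcy8 encodes a cyclase stimulated by calcium and calmodulin, and it was at 0.491 and 0.606 TPM in 2D and at 0.552 and 0.475 TPM in 3D. Adcy5 was at 0.850 and 0.927 TPM in 2D and at 0.921 and 0.792 TPM in 3D. For both genes the groups overlap. In the fit without the expression filter their adjusted p was 0.70 for Adcy5 and 0.67 for Adcy8 in limma.

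Of the other 7 cyclase genes, 5 lay below the filter and 2 were tested. Adcy1, another cyclase that calcium and calmodulin stimulate, rose from 2.46 and 1.76 TPM in 2D to 5.22 and 4.43 TPM in 3D (log2 fold change 0.88, adjusted p = 0.0095 in limma). It was thus above both Adcy5 and Adcy8 in every culture. Adcy9, at 7.53 and 5.80 TPM in 2D and 8.05 and 8.66 TPM in 3D, was not called (adjusted p = 0.11 in limma). Summed over the 10 cyclase genes, the level was 38.5 ± 2.14 TPM (SD, n = 2) in 2D and 52.1 ± 1.69 TPM (SD, n = 2) in 3D. Adcy6 took 71.2% and 74.9% of that sum in 2D and 69.9% and 72.1% in 3D, shares that overlap, while Adcy1 went from 6.15% and 4.77% to 10.3% and 8.32%.

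On the side of degradation, Pde3b rose as well. The enzyme it encodes hydrolyses cAMP in beta cells and fat cells. Pde3b was at 41.6 and 37.1 TPM in 2D and at 57.6 and 54.7 TPM in 3D. The groups were well separated, and the log2 fold change was 0.46 (standard error 0.066, 95% confidence interval 0.30 to 0.63, adjusted p = 0.0075 in limma). It missed the threshold under 1 of the 13 other settings, when 3D replicate 1 was left out (adjusted p = 0.079 in limma).

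The other phosphodiesterases that can act on cAMP mostly moved in the same direction. Of 15 genes listed, 12 were tested, 7 of these rose and 1 fell, with a median log2 fold change of 0.51. Among all genes tested, 18.5% were called as higher and 19.5% as lower. Pde10a, which cleaves both cAMP and cGMP, had the largest rise of the list, from 12.9 and 9.21 TPM in 2D to 27.5 and 30.4 TPM in 3D (log2 fold change 1.29, adjusted p = 0.0045 in limma). Pde7b, a cAMP-specific enzyme, rose by 1.03 on the log2 scale from a mean of 2.80 to 6.93 TPM. Pde2a, which cGMP stimulates, rose by 0.88, and Pde1c, which calcium and calmodulin activate, by 0.84. The gene that fell was Pde1b, at 2.65 and 2.55 TPM in 2D and 1.41 and 1.81 TPM in 3D (log2 fold change -0.50, adjusted p = 0.029 in limma). Pde3b remained the most abundant member of the family. Its share of the summed TPM of 16 phosphodiesterase genes was 34.3% and 35.03% in 2D and somewhat lower, 33.2% and 31.0%, in 3D, whereas that of Pde10a was 10.6% and 8.71% in 2D and 15.9% and 17.2% in 3D.

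Rapgef4, the gene of the EPAC2 sensor, did not share in these rises. It was at 3.17 and 2.93 TPM in 2D and at 2.64 and 2.66 TPM in 3D. Both 3D cultures were lower than both monolayer cultures, but the difference did not pass the test (log2 fold change -0.18, standard error 0.098, 95% confidence interval -0.43 to 0.06, adjusted p = 0.19 in limma), nor under any of the 12 other settings that gave a value. Rapgef3, which encodes EPAC1, lay below the filter at 0.330 and 0.305 TPM in 2D and 0.505 and 0.551 TPM in 3D. Of the 5 tested genes listed as EPAC1 or as partners of EPAC2, 1 was called, beside 38.0% of all genes tested. This was Rap1gap, an inactivator of the Rap1 GTPase that EPAC2 switches on, which rose from 10.5 and 11.3 to 16.4 and 16.2 TPM (log2 fold change 0.50, adjusted p = 0.0099 in limma). Rap1a, Rap1b, Rims2 and Pclo had log2 fold changes from -0.04 to 0.29 and were not called.

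Crem had the second largest rise among the members. Its protein forms include activators and the repressor ICER, and the RefSeq gene table gives Icer as a synonym of the gene. Crem was at 46.4 and 41.9 TPM in 2D and at 82.8 and 80.0 TPM in 3D. The 3D cultures lay close together and far above both monolayer cultures, and the log2 fold change was 0.83 (standard error 0.060, 95% confidence interval 0.68 to 0.98, adjusted p = 0.0035 in limma). Crem was called under all 13 other settings, with log2 fold changes from 0.79 to 0.87.

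Crem is listed with 7 transcripts, some of which moved in opposite directions. ENSRNOT00000074146.2, the most abundant, was at 27.7 and 24.2 TPM in 2D and at 54.8 and 53.1 TPM in 3D (log2 fold change 0.99, adjusted p = 0.016 in limma over the 15020 transcripts tested, of which 23.1% were called). ENSRNOT00000089536.1 rose from 5.66 and 6.78 TPM to 19.3 and 18.6 TPM (log2 fold change 1.43, adjusted p = 0.016 in limma). In contrast, ENSRNOT00000020012.6 fell from 4.92 and 3.82 TPM to 1.01 and 0.388 TPM (log2 fold change -1.70, adjusted p = 0.020 in limma). ENSRNOT00000092187.1 was at 7.92 and 6.80 TPM in 2D and at 7.55 and 7.51 TPM in 3D, where the groups overlap. The remaining 3 transcripts did not exceed 0.406 TPM. The share of ENSRNOT00000020012.6 in the gene thus went from 10.6% and 9.13% to 1.22% and 0.485%, and that of ENSRNOT00000089536.1 from 12.2% and 16.2% to 23.3% and 23.3%. The files do not say which of these transcripts encode activators and which encode ICER, and reads of overlapping transcripts are divided among them by the quantification. The transcript calls were lost with 3D replicate 1, 3D replicate 2 or 2D replicate 2 left out, each of which left 0 member transcripts, and 0 of all transcripts, called in limma. At an unadjusted p below 0.05 the counts were then 7, 6 and 7, beside 7 with all cultures.

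**Figure D3:**
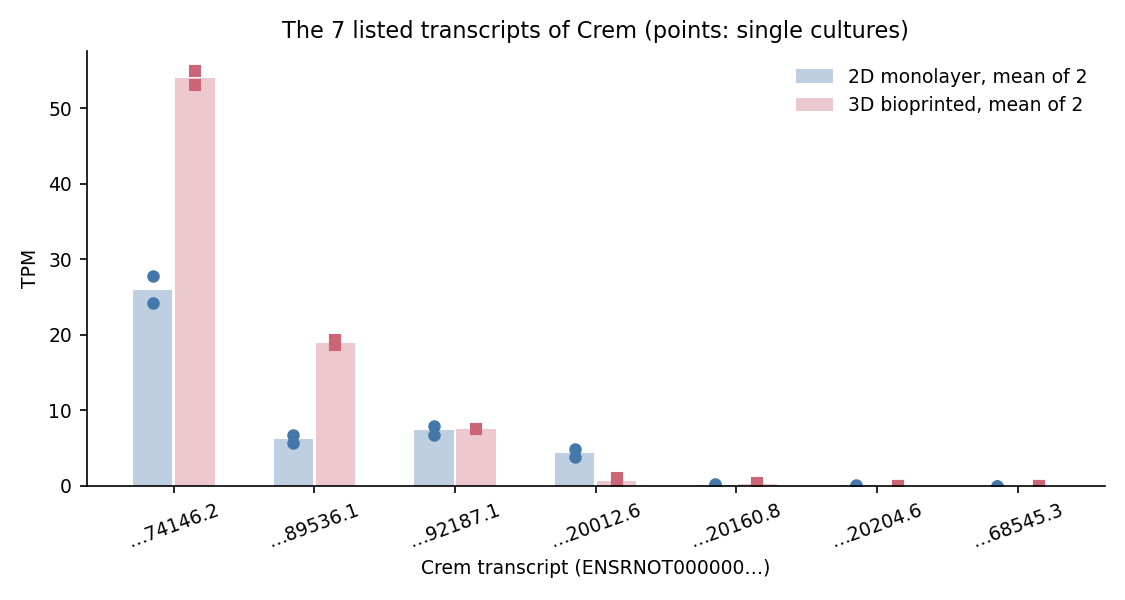
TPM as deposited of the 7 listed Crem transcripts, with points for single cultures and bars from 0 for the mean of 2 cultures in 2D (circles) and 3D (squares). The first and second transcripts were higher in 3D, the third overlapped and the fourth was lower.

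CREB and its relatives bind the cAMP response element, whose full form is TGACGTCA and whose half-site TGACG reads CGTCA where it lies on the other strand. Because Crem and Sik1 are known targets of CREB, the windows before their annotated starts are shown, with each half-site in capitals, so that a full site appears as 8 capitals in a row. Sequences are from RefSeq on the GRCr8 build, cover the 250 bases before a start, and run 5′ to 3′ on the strand of the gene. RefSeq gives 3 start windows for Crem, numbered here in the direction of transcription. The first is chr17:58933816-58934065, the second chr17:58984547-58984796 and the third chr17:58985240-58985489, all on the plus strand, and that of Sik1 is chr20:9958647-9958896 on the minus strand.
Crem start 1: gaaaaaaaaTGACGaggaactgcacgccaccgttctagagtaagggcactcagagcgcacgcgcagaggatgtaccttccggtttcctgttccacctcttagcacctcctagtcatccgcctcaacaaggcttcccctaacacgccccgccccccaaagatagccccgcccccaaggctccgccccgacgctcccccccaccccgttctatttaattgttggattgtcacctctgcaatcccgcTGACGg
Crem start 2: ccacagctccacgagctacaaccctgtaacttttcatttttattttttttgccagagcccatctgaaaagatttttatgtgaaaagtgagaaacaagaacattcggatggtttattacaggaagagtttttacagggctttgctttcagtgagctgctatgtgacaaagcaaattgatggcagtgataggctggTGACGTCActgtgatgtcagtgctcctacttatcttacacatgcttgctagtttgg
Crem start 3: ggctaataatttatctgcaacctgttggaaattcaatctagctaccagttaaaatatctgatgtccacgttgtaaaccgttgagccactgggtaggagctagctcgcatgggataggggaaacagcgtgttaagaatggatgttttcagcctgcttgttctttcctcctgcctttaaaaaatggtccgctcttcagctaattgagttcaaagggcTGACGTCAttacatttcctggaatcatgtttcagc
Sik1: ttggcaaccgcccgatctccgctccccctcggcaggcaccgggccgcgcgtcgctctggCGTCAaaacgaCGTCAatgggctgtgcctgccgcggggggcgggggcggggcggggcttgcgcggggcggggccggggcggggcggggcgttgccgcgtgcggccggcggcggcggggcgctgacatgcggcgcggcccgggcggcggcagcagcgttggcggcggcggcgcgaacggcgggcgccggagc

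The first Crem window held half-sites alone, whose first bases lie at -241 and -6 from the start. Each of the internal Crem windows held a full site, at -56 in the second and at -35 in the third, and a further full site began at position 40 after the third start. The Sik1 window held 2 half-sites on the reverse strand, at -191 and -180. Over all 33469 windows of the table, which add the 50 bases after each start, 1.83% held a full site and 21.2% at least 1 half-site on either strand, and full sites were counted as half-sites too. Windows were given for 6 of the 10 members, 9 in all. Creb1 had half-sites at -80, -59 and 9 of its first window, and Glp1r had 1 at position 22. No such letters were in the windows of Adcy5 and Rapgef4 or the second of Creb1. Gipr, Adcy6, Adcy8 and Pde3b were not analysed here. Which start the deposited transcripts use was not determined.

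For Creb1 itself no difference was detected. It was at 6.80 and 4.81 TPM in 2D and at 5.68 and 5.68 TPM in 3D, so that the monolayer cultures lay on either side of the 3D cultures. The log2 fold change was -0.05 (standard error 0.13, 95% confidence interval -0.38 to 0.29, adjusted p = 0.80 in limma), and it was not called without 2D replicate 1 (0.13) or without 2D replicate 2 (-0.23). Crem stood at 6.83 and 8.70 times the level of Creb1 in 2D and at 14.6 and 14.1 times in 3D. Of the summed TPM of Crem, Creb1 and the related factor Atf1, Crem took 45.9% and 46.2% in 2D and 60.1% and 58.8% in 3D.

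Sik1 encodes a salt-inducible kinase that holds the CREB coactivators of the CRTC family in the cytoplasm, and PKA inhibits it. It was at 2.94 and 3.00 TPM in 2D and at 4.32 and 4.77 TPM in 3D. The groups did not overlap, and the log2 fold change was 0.44 (standard error 0.098, 95% confidence interval 0.20 to 0.69, adjusted p = 0.020 in limma). The call was lost without 2D replicate 1 (adjusted p = 0.052 in limma), 3D replicate 1 (0.095) or 3D replicate 2 (0.12). Sik1 has a single transcript, whose adjusted p over all transcripts was 0.051 in limma.

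Most of the listed kinases and cofactors of CREB also rose. Of 8 genes listed, all were tested, 6 rose and none fell, beside 18.5% of all genes called as higher, and all 8 log2 fold changes were above 0. Sik2 rose from 7.34 and 7.13 TPM to 15.1 and 13.8 TPM (log2 fold change 0.86, adjusted p = 0.0041 in limma). Sik3 rose from 10.9 and 10.2 to 16.0 and 15.4 TPM (0.49). Sik1 was the least abundant of the 3 kinases, at 13.9% and 14.7% of their summed TPM in 2D and 12.2% and 14.1% in 3D. Ep300, a histone acetyltransferase that CREB recruits, rose by 0.88 on the log2 scale, from a mean of 4.37 to 9.04 TPM, and its close relative Crebbp by 0.26. Crtc1 rose by 0.46 and Crtc3 by 0.39, while Crtc2, at 27.6 and 27.1 TPM in 2D and 31.8 and 30.9 TPM in 3D, was not called (adjusted p = 0.098 in limma).

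Among 19 known cAMP-responsive genes, 14 were tested, 11 rose and none fell at an adjusted or an unadjusted p, with a median log2 fold change of 0.57, beside 18.5% of all genes called as higher. This list, like the others, was written with earlier results of these data known. Many of its genes also answer to growth factors, calcium and stress, and some belong to the immediate-early response. Junb, a subunit of AP-1, was at 15.1 and 16.4 TPM in 2D and at 35.2 and 33.1 TPM in 3D. Nr4a1, an orphan nuclear receptor, rose from 8.93 and 8.15 to 16.4 and 14.6 TPM (log2 fold change 0.75, adjusted p = 0.0051 in limma). Per1, a clock gene, rose by 0.61 on the log2 scale. Ppargc1a, a coactivator of mitochondrial genes, was at 1.02 and 0.714 TPM in 2D and at 3.54 and 2.94 TPM in 3D, a log2 fold change of 1.16 that the added 1 understates at such levels. Not called were Egr1, Ier2 and Btg2, with log2 fold changes of 0.33, -0.14 and -0.15.

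Between receptor and nucleus lie the G proteins and PKA. Gnas, the stimulatory G protein gene, was by far the most abundant alpha subunit of its list at 1099 and 1156 TPM in 2D and 1158 and 1218 TPM in 3D, and it was not called (log2 fold change 0.03, adjusted p = 0.75 in limma). Of the 6 alpha subunits tested, Gnai1 and Gnaz, both of the inhibitory class, fell by 0.38 and 0.28 on the log2 scale, and Gnao1, also of that class, rose by 0.25 (adjusted p = 0.022, 0.019 and 0.031 in limma). Among all genes tested, 38.0% were called in either direction, the share to set beside the alpha subunits and the PKA list. Of the 9 PKA subunit and inhibitor genes, 1 was called. Prkar1a, the most abundant regulatory subunit gene, rose from 374 and 344 TPM to 461 and 453 TPM (log2 fold change 0.31, adjusted p = 0.013 in limma). The catalytic subunit gene Prkacb was at 79.6 and 57.2 TPM in 2D and 93.5 and 92.9 TPM in 3D (adjusted p = 0.053 in limma), and Prkaca was at 100.5 and 106 TPM in 2D and 93.9 and 94.7 TPM in 3D (adjusted p = 0.095 in limma).

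The anchoring proteins that place PKA in the cell were 14 genes, of which 10 were tested and 5 rose, beside 18.5% of all genes called as higher and 38.0% called in either direction. Akap8, a nuclear anchor, rose from 36.1 and 32.6 to 48.3 and 48.0 TPM (log2 fold change 0.44, adjusted p = 0.0066 in limma). Akap11, Akap13 and Akap9 rose by 0.51, 0.44 and 0.40. Genes that end receptor signalling were split. Of 7 receptor kinase and arrestin genes, Grk2 and Arrb2, which encodes a beta-arrestin, fell by 0.22 and 0.28 on the log2 scale. Grk3 rose by 0.31, and 4 were not called, where 38.0% of all genes were called in either direction. Among these 4 was Arrb1, the other beta-arrestin gene of the list. It was at 1.67 and 1.82 TPM in 2D and 2.85 and 2.33 TPM in 3D (log2 fold change 0.36, adjusted p = 0.081 in limma). The calls of Gnao1, Grk2 and Grk3 held under 7, 7 and 8 of the 13 other settings, and those of Gnai1, Arrb2 and Adcyap1r1 under 9 each, without a change of direction. With all cultures kept, Gnai1 missed the threshold without scaling (adjusted p = 0.059 in limma) and without the filter (0.052), Arrb2 without scaling (0.052) and Adcyap1r1 without the filter (0.056). Gnao1 missed it without the filter (0.052) and without the intensity trend (0.055), and Grk3 under the same settings (0.064 and 0.051). Grk2 missed it without scaling (0.085) and without the trend (0.059).

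**Figure D4:**
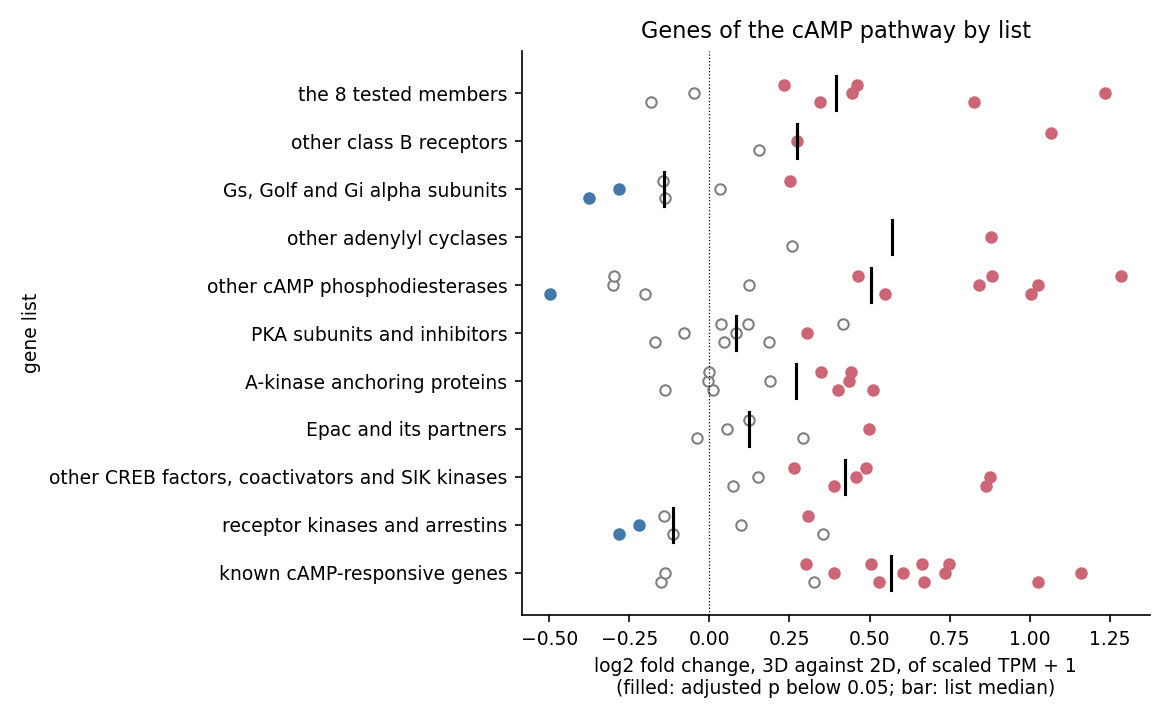
Log2 fold change in 3D against 2D culture of the 8 tested members and of each tested gene in the 10 lists of the cAMP pathway, filled where the adjusted p was below 0.05 in limma, with a bar at each list's median. Phosphodiesterases, CREB cofactors and cAMP-responsive genes lie mostly to the right of 0, and alpha subunits and receptor kinases on both sides.

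Over all 10 lists, 103 of the 104 genes are in the files, 76 were tested, 36 rose and 5 fell. Without scaling, 36 were called as higher and 2 as lower, since Gnai1, Arrb2 and Grk2 then missed the threshold. In the main fit the median log2 fold change of the 76 tested genes was 0.27, beside -0.003 over all genes, where the split of calls was 18.5% higher and 19.5% lower. The lists were written with earlier results of these data known, and no test was made over them. The count of 41 called genes was 31 with 2D replicate 2 left out, 13 with 3D replicate 2 left out and 1, Gcgr, with 3D replicate 1 left out. Over all genes the count went from 4541 to 136 with 3D replicate 1 left out and to 1037 with 3D replicate 2 left out.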

How the data were processed

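Messenger RNA profiles of 4 INS-1 cultures, 2 monolayer and 2 bioprinted, were grouped by their sample labels. Per the labels and methods, reads of stranded libraries were quantified with Salmon 1.2 against rn4 sequences to which human insulin was added, and the authors deposited TPM for each transcript. The files write decimal commas, and each sample sums to 1000000. The study's DESeq2 test needs counts, which TPM do not carry.

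Transcript values were added up by symbol, and the 11960 symbols averaging at least 1 TPM were kept. Samples were scaled by TMM without weights (trims of 30% for M and 5% for A, factors 0.960 to 1.02), and log2(TPM + 1) was compared with limma 3.58.1 in R 4.3.3 with an intensity trend. The Benjamini-Hochberg adjustment covered all genes, or all transcripts in transcript tests. The pseudocount of 1 understates the change of low genes. TPM values printed are as deposited. The labels name replicates. The p-values rest on the spread between these cultures, which limma draws toward a trend over all genes or transcripts tested.

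All 10 members are named. From each pathway list up to 4 called genes with the smallest p were to be named. Other list genes given with values were picked after these were seen. Members and lists were chosen with earlier results of these data known. Alternatives were the scaling, filter, pseudocount, replicate block, empirical Bayes options and each culture left out. The steps were tested on simulated data. Another alpha-cell marker is not reported here.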

Additional observations from a re-analysis of the deposited data

How the results depend on the processing

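With a culture left out, the number of genes called ran from 136 to 4515 in place of 4541, of members from 2 to 5 in place of 6, of pathway genes from 1 to 39 in place of 41, and of member transcripts from 0 to 5 in place of 6. In these fits the group left with 1 culture is assumed to vary like the other. Under the 9 alternatives with all cultures, these counts stayed within 1.5 times, with 5 or 6 members and 35 to 42 pathway genes called. The log2 fold change of Creb1, -0.05, ran from -0.23 to 0.13, which is the value without 2D replicate 1. No pairing by replicate number was detected, as the deviations of cultures sharing a number had a correlation of -0.006 across genes. With 2 cultures per group this is a single comparison, which cannot show whether the cultures were prepared as pairs. The replicate block called 4814 genes, 6 members, 42 pathway genes and 6 member transcripts, and changed no member's call. Factors taken from all genes, chosen after seeing the data, put the median log2 fold change of all genes at -0.04, and 41.3% of calls were then higher in 3D, against 48.7%. Without scaling the median was 0.04 and 55.5% of calls were higher. TPM carry no depth, so no counting error or detection limit could be given for the low genes Adcy5 and Adcy8.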
